A study of Rattus norvegicus with 21 samples.

Results

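The machinery that turns prohormones into secreted peptides was followed through 10 genes in cultured rat pancreatic islets. They were the proprotein convertases Pcsk1 and Pcsk2, the carboxypeptidase Cpe, the convertase chaperone Scg5, the convertase inhibitor Pcsk1n, the granins Chga, Chgb, Scg2 and Scg3, and the amidating enzyme Pam. They were picked by symbol from the 17025 genes of the deposited count table, in which all 10 were found, and all 10 were among the 12576 genes with enough counts to be tested.

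Endocrine cells make their hormones as larger precursors that are sorted into dense-core secretory granules. There the convertases PC1/3 (Pcsk1) and PC2 (Pcsk2) cut the precursors after paired basic residues, carboxypeptidase E (Cpe) trims the exposed basic residues, and peptidylglycine alpha-amidating monooxygenase (Pam) amidates the C terminus of some of the products. The protein 7B2 (Scg5) assists the maturation of PC2, and proSAAS (Pcsk1n) inhibits PC1/3. Granins are acidic, calcium-binding granule proteins: chromogranin A (Chga), chromogranin B (Chgb) and secretogranin II (Scg2) aggregate with the cargo and are themselves precursors of peptides, and secretogranin III (Scg3) binds chromogranin A and the granule membrane. In beta cells this pathway makes insulin and amylin, and in alpha cells PC2 yields glucagon.

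The islets came from Sprague Dawley rats in 3 separate isolations (preparations), each a pool of 8 rats that was split over the culture groups. Control medium held 11 mM glucose without palmitate, and glucolipotoxic (GLT) medium held 27 mM glucose with 300 µM palmitate, a model of nutrient excess. Compounds D and E were used at 300 nM, always on top of GLT medium, and the labels give neither a structure nor a target for them. The undisputed groups were 24 h GLT with compound E (2 libraries, preparations 1 and 2), 24 h GLT with compound D, 24 h GLT, 3 h GLT with compound E (1 library, preparation 2), 3 h GLT with compound D and 3 h control, with 3 libraries each where no number is given. The other 6 of the 21 libraries carry conflicting labels. Condition 2 is 24 h control in the sample records and 3 h GLT in the deposited sample sheet, and condition 3 is 3 h GLT in the records and 24 h control in the sheet. Both are therefore called by their number, and each comparison with them can be read under either label.

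Summed levels of the cell type markers differed between the undisputed 24 h libraries, all in GLT medium, and the undisputed 3 h libraries. They placed the disputed libraries as follows. Levels are CPM, the counts of a gene per M counts in all genes of the library, scaled by the trimmed mean of M values (TMM). The endothelial markers (7 of 7 detected) summed to 21.8 to 102 CPM in the 8 undisputed 24 h libraries, against 193 to 223 CPM in the 7 undisputed 3 h libraries. They summed to 194 to 242 CPM in condition 2 and to 69.5 to 114 CPM in condition 3. Red cell markers (3 of 5 detected) summed to 0.377 to 1.55 CPM in the undisputed 24 h libraries, against 3.42 to 12.5 CPM in the undisputed 3 h libraries, with 8.37 to 12.4 CPM in condition 2 and 0.508 to 0.811 CPM in condition 3. For both lists the libraries of condition 2 lay with or near the 3 h libraries and those of condition 3 with or near the 24 h libraries, which is the order of the sheet. Markers of beta, alpha, delta and PP cells were detected in every condition, and the acinar markers summed to at most 17.4 CPM.

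Libraries held 22.3 to 40.2 M counts in genes (median 27.8 M), of which the 10 genes took 2.25% to 3.30%. Insulin (Ins1 and Ins2) made up 9.32% to 45.9% of a library's counts, so the share left for all other genes varied between libraries. The entry Rn45s made up 0.0333% to 7.88%. A pair of libraries stood apart. The condition 3 library of preparation 2 had 23.4% of its reads aligned to more than 1 place and 45.9% of its gene counts in insulin, and the 24 h GLT with compound E library of preparation 1 had the lowest scaling factor, 0.682. The compound E library is less clearly apart. The next factor was 0.754, in the 24 h GLT with compound D library of preparation 2. Insulin made up 43.3% of the gene counts there, against 42.6% in the compound E library.

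The promoters of Scg2, Scg3 and Pam are shown because the results below turn on these 3 genes. They are RefSeq sequences of the build GRCr8, 250 bases before and 50 bases after the annotated start, written 5′ to 3′ on the strand of the gene. The window of Scg2 is chr9:88256817-88257116 (minus strand), that of Scg3 is chr8:85322435-85322734 (minus strand) and that of Pam is chr9:105570118-105570417 (plus strand). Capitals mark TGACGTCA (the cAMP response element), GGGCGG (the GC box) and CCAAT, each searched on both strands, where neighbouring GC boxes may overlap.
Scg2: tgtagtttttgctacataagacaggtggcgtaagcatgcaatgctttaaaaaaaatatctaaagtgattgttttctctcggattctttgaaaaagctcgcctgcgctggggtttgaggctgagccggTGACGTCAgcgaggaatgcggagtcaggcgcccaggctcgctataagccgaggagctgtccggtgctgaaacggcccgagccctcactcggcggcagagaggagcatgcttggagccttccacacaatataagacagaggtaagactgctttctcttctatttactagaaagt
Scg3: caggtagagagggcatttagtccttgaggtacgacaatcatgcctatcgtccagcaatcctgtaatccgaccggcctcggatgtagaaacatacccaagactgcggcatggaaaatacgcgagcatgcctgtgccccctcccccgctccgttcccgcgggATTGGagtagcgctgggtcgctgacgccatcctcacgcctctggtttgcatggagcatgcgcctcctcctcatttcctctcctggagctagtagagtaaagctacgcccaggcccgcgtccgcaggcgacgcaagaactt
Pam: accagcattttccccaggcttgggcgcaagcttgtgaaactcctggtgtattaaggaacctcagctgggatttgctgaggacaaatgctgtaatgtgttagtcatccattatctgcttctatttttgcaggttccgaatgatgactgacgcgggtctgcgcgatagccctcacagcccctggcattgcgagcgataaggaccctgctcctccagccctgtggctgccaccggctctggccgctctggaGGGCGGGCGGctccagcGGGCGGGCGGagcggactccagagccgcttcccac
Promoters of 8 of the 10 genes were matched in the table. TGACGTCA was found in 1 of them, Scg2, with its first base 123 bases before the start, and in 1.91% of all 27457 promoters of the same length. GGGCGG was found in 6 of the 8, with 4 matches in Pam and none in Scg2 or Scg3, against 34.89% of all promoters. CCAAT was found in 2 of the 8, Scg3 and Pcsk2, against 37.74% of all promoters, and TATAAA in 0 of the 8, against 14.26%. These matches describe letters in the window and say nothing of what binds there.

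Scg2 was lower in the undisputed 24 h libraries than in the undisputed 3 h libraries. It carried 3 of the 4 calls made over the 10 genes and 14 comparisons, in which 0% to 12.5% of all genes tested passed. The 3 comparisons share the libraries of 24 h GLT with compound D or of condition 2, so these calls are not independent. Under GLT with compound D, Scg2 was at 3594, 4098 and 2373.5 CPM at 24 h in preparations 1, 2 and 3 (3355 ± 887, SD, n = 3), against 5795, 6334 and 4806 CPM at 3 h (5645 ± 775). Every 24 h library lay below every 3 h library, a separation in either direction that 19.7% of all genes showed, and the 24 h value was the lower one within each preparation. Scg2 fell by 0.78 on the log2 scale (SE 0.18, 95% interval of the log2 fold change -1.16 to -0.40), to 0.582 of the 3 h level, with a Benjamini-Hochberg adjusted p of 0.0203 in edgeR's quasi-likelihood test. It was the 1 gene of the 10 that passed the threshold of 0.05, and 6.11% of all genes tested passed in this comparison. The fall kept its direction but missed the threshold without the preparation 1 library at 24 h (adjusted p = 0.0637, edgeR) or at 3 h (0.0620), without the preparation 3 library at 24 h (0.0673) or at 3 h (0.114), without preparation 1 (0.267) or preparation 3 (0.144), without the preparation block (0.166), with library size scaling (0.0695), and in a fit of the 15 undisputed libraries alone (0.0660).

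The levels of Scg2 in the other undisputed groups were split in the same way. All undisputed 24 h groups were in GLT medium, so time and GLT cannot be told apart where 3 h control is the reference. They were 3626 and 3877 CPM in 24 h GLT with compound E (preparations 1 and 2) and 3780, 4386 and 1778 CPM in 24 h GLT. The 3 h GLT with compound E library stood at 7513 CPM, and the 3 h control libraries at 6283, 6077 and 5243 CPM. All 8 undisputed 24 h libraries were below all 7 undisputed 3 h libraries, and the share of all genes with that separation was not computed. The groups of 24 h GLT, 24 h GLT with compound D and 24 h GLT with compound E overlapped each other. In bulk islet RNA, fewer cells that express a gene and less of its RNA per cell cannot be told apart. The endothelial sum was 21.8 to 102 CPM in 24 h GLT with compound D, against 199 to 209 CPM in 3 h GLT with compound D, and its part in the Scg2 result was not tested.

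Condition 2 had 7573, 7995 and 5839 CPM of Scg2 in preparations 1, 2 and 3, the highest level within each preparation. Condition 3 had 5397, 5092 and 3680 CPM, of which the first 2 lay within the range of the undisputed 3 h libraries and the last within that of the undisputed 24 h libraries. Scg2 fell by 1.17 on the log2 scale in 24 h GLT relative to condition 2 (SE 0.18), to 0.446 of its level, with an adjusted p of 0.00195 in edgeR's test. It also fell in 24 h GLT with compound D relative to condition 2, by 1.11 (SE 0.18), with an adjusted p of 0.00122. The groups did not overlap in either comparison, a separation that 33.4% and 27.5% of all genes showed, and condition 2 had the higher value in all 3 preparations of both. The endothelial sum was 28.2 to 90.6 CPM in 24 h GLT and 21.8 to 102 CPM in 24 h GLT with compound D, against 194 to 242 CPM in condition 2, and its part was not tested. In the first comparison 2 of the 10 genes passed (Scg2 and Scg3), against 8.52% of all genes tested, and in the second 1 of the 10, against 12.5%. The first call was lost without preparation 1 (adjusted p = 0.139, edgeR) or preparation 3 (0.0599), and the second without preparation 1 (0.0808). Both comparisons share the condition 2 libraries, so they are no independent pair.

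The fall in 24 h GLT relative to condition 2 is a difference between GLT and control at 24 h by the sample records and between 24 h and 3 h of GLT by the sheet. That in 24 h GLT with compound D also includes the compound under either label. By the sheet, the comparison of 24 h GLT with 24 h control is that with condition 3, in which Scg2 had a log2 fold change of -0.56 (SE 0.18, 95% interval -0.95 to -0.18) and did not pass (adjusted p = 0.0781, edgeR). For 24 h GLT with compound D against condition 3 the log2 fold change was -0.51 (SE 0.18, adjusted p = 0.234, edgeR). Whether GLT acted differently at 24 h than at 3 h can be tested whichever labels hold, since swapping conditions 2 and 3 leaves that contrast as it is. For Scg2 the difference of the effects was -0.83 on the log2 scale (SE 0.25, adjusted p = 0.333, edgeR). None of the 10 genes passed in that contrast, in which 0.0716% of all genes passed. There 2 of the 10, Scg2 and Pcsk2, had an unadjusted p below 0.05, and DESeq2 called 0.

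**Figure D1:**
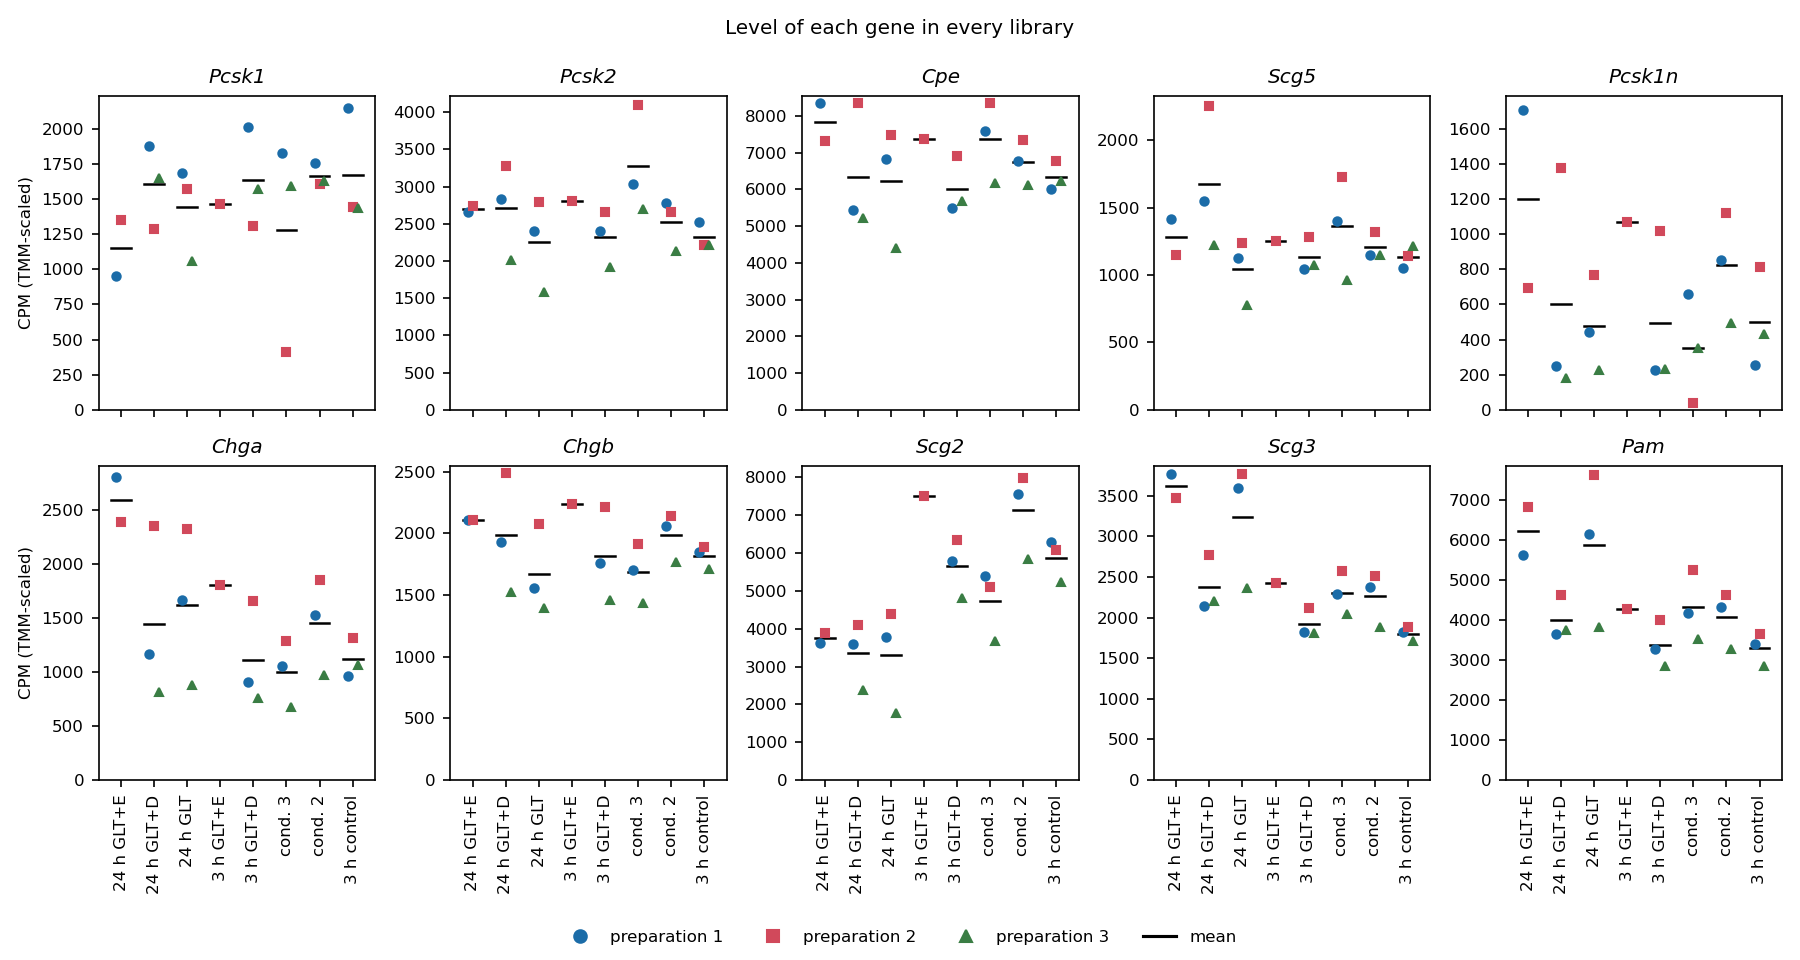
Level of each of the 10 genes in CPM (vertical axes, from 0) in every library by condition, with the preparation as colour and shape and the condition mean as a line. Scg2 is at 1778 to 4386 CPM in the 8 undisputed 24 h libraries and at 4806 to 7513 CPM in the 7 undisputed 3 h libraries. Pcsk1n ranges from 40.2 to 1706 CPM.

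Scg3 and Pam were highest in 24 h GLT and in 24 h GLT with compound E, and they moved together. Scg3 was at 3765 and 3475 CPM in 24 h GLT with compound E (preparations 1 and 2), at 2139, 2775 and 2202 CPM in 24 h GLT with compound D, and at 3591, 3763 and 2369 CPM in 24 h GLT. It was at 2430.2 CPM in the 3 h GLT with compound E library, at 1817, 2119 and 1811 CPM in 3 h GLT with compound D, and at 1821, 1879 and 1707 CPM in 3 h control. All 8 undisputed 24 h libraries lay above the 6 libraries of 3 h GLT with compound D and 3 h control, but 3 of the 8 lay below the 3 h GLT with compound E library. How many of all genes had such a separation was not computed. Condition 3 had 2294, 2577 and 2044 CPM and condition 2 had 2379, 2517 and 1882 CPM.

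Scg3 rose by 0.51 on the log2 scale in 24 h GLT relative to condition 2 (SE 0.15, 95% interval 0.20 to 0.82), to 1.43 times its level, with an adjusted p of 0.0432 in edgeR's test. The difference was 0.59, 0.58 and 0.33 in preparations 1, 2 and 3, and the groups overlapped, since the preparation 3 library of 24 h GLT lay below the condition 2 libraries of preparations 1 and 2. The call did not hold in any fit without 1 preparation (adjusted p 0.101 to 0.355, edgeR), without any single condition 2 library (0.110 to 0.183), without the 24 h GLT library of preparation 1 or 2 (0.187 and 0.153), or without the preparation block (0.126). It was also lost without the preparation 1 library of 3 h control, condition 3 or 3 h GLT with compound D, or the preparation 3 library of condition 3 or 3 h GLT with compound D (0.0559 to 0.0598).

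Pam was at 5634.5 and 6822 CPM in 24 h GLT with compound E, at 3649, 4620.5 and 3762 CPM in 24 h GLT with compound D, and at 6163, 7621 and 3834 CPM in 24 h GLT. It was at 4289.9 CPM in the 3 h GLT with compound E library, at 3287, 4014 and 2848 CPM in 3 h GLT with compound D, and at 3414, 3651 and 2841 CPM in 3 h control. The 24 h GLT libraries were the higher ones in all 3 preparations when set against 3 h control, but preparation 3 stood well below the other 2. In condition 3 it was at 4166, 5261 and 3530.3 CPM, and in condition 2 at 4336, 4639 and 3268 CPM. In 24 h GLT against condition 2 its log2 fold change was 0.50 (SE 0.15, 95% interval 0.18 to 0.82), just short of the threshold (adjusted p = 0.0536, edgeR). It passed in 11 of the 31 other fits of that comparison, with adjusted p from 0.00415 to 0.384.

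**Figure D2:**
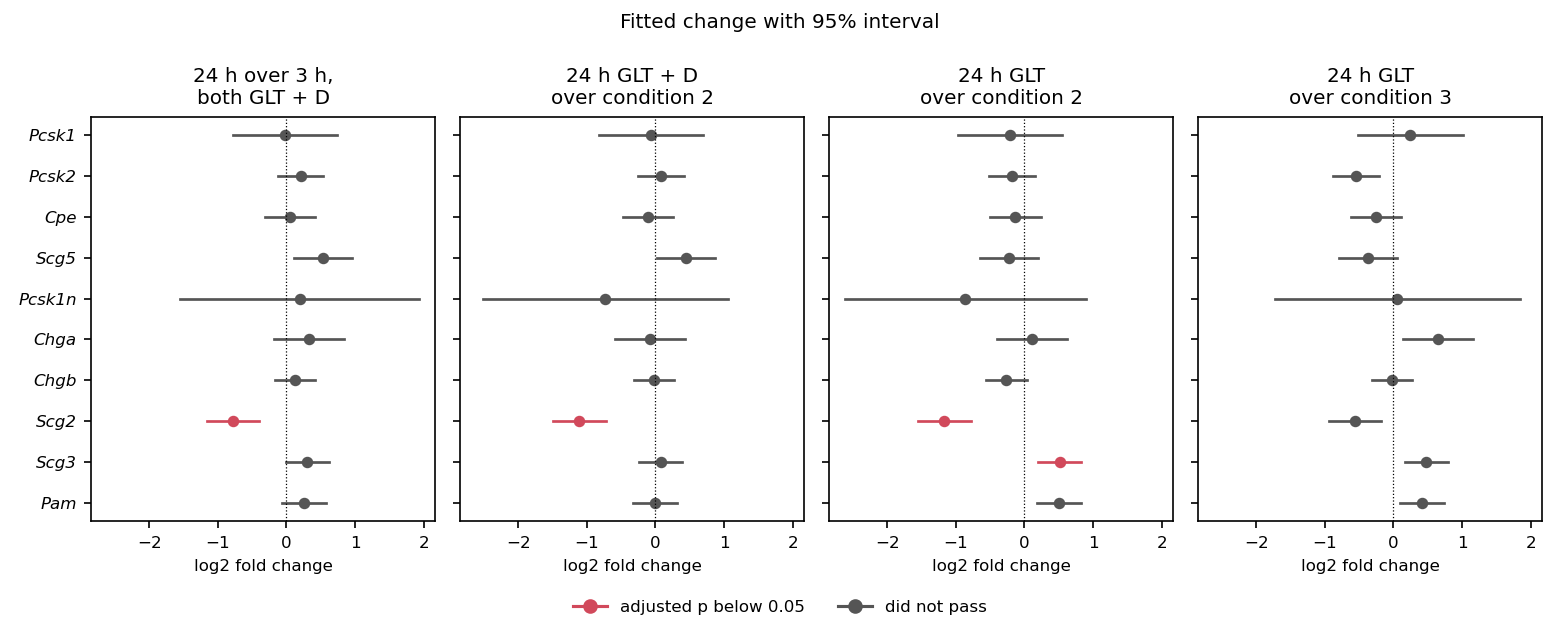
Fitted log2 fold change (horizontal axes) with its 95% interval for each gene in 4 comparisons of 24 h groups, with genes that passed an adjusted p of 0.05 in red. Scg2 is the lowest point in all 4 comparisons, in the last of them (24 h GLT over condition 3) close to Pcsk2 (-0.56 and -0.55). Scg3 (0.51) and Pam (0.50) lie together in 24 h GLT over condition 2.

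The balance of Scg2 against Scg3 and Pam within the 10 genes differed between the undisputed 24 h and 3 h libraries. All undisputed 24 h libraries were in GLT medium, and no 24 h control had an undisputed label. The 3 h set included 3 h control, so time and medium were partly confounded. Each gene's share of the 10-gene CPM sum was looked at after the levels were seen and is given as a description, with no test. Scg2 made up 9.72% to 14.7% of the sum in the 8 undisputed 24 h libraries, against 21.5% to 23.9% in the 7 undisputed 3 h libraries. It was 23.1% to 24.3% of the sum in condition 2 and 15.9% to 18.5% in condition 3, so no library of condition 3 fell in either range. Pam made up 17.1% to 22.4% in the 5 libraries of 24 h GLT and 24 h GLT with compound E, 14.05% to 17.9% in 24 h GLT with compound D, and 11.8% to 13.6% in the 7 undisputed 3 h libraries. Scg3 made up 10.9% to 12.9%, 8.44% to 10.5% and 6.91% to 8.17% in the same 3 sets of libraries, which did not overlap. How many genes would show such a separation was not computed. In condition 2 Scg3 made up 7.46% to 7.63% and Pam 12.9% to 14.0%, and in condition 3 7.87% to 8.83% and 14.3% to 17.1%. The shares of the 10 genes add up to the whole, so a lower share of Scg2 by itself raises those of the others. Between single groups of 3 libraries, an exact 2-sided permutation test of such a share cannot give a p below 0.1. That bound does not describe the pooled sets above, whose libraries come from the same 3 preparations.

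**Figure D3:**
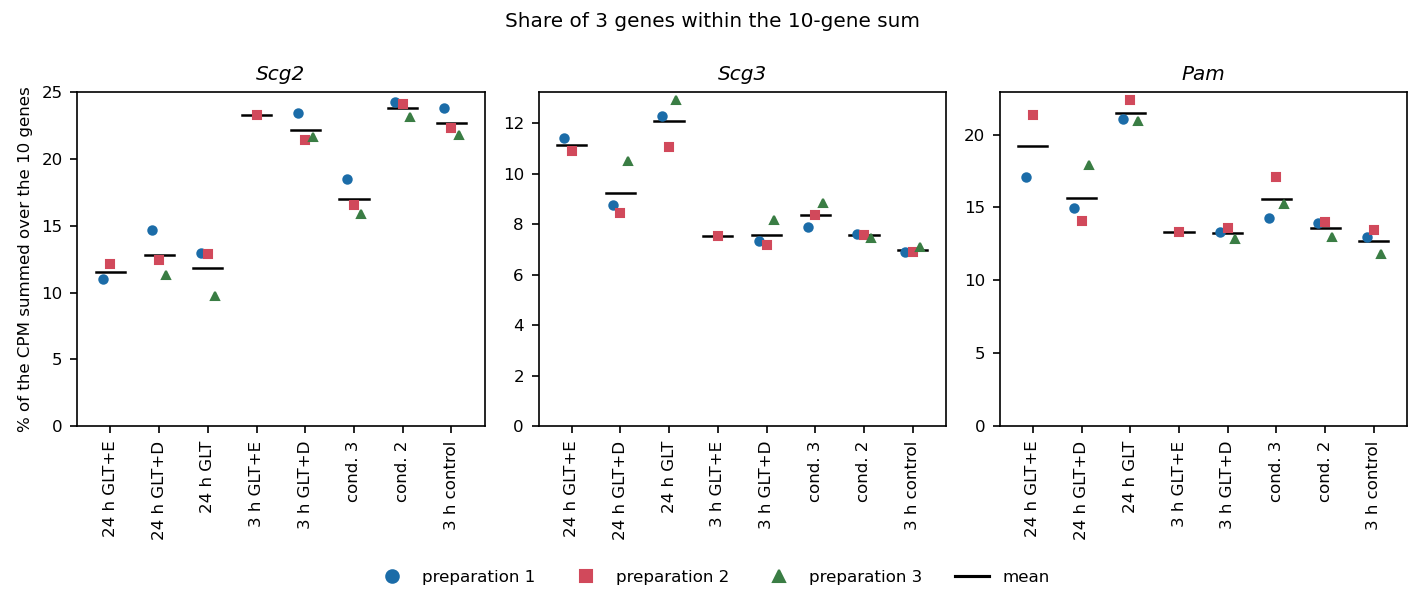
Share of Scg2, Scg3 and Pam in the CPM summed over the 10 genes (vertical axes in percent, from 0), by condition, with the preparation as colour and shape and the mean as a line. Scg2 is at 9.72% to 14.7% in the undisputed 24 h libraries and at 21.5% to 23.9% in the undisputed 3 h libraries, with condition 3 between them.

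The convertases themselves did not pass in any of the 14 comparisons. Pcsk1 was at 949.7 and 1355 CPM in 24 h GLT with compound E, at 1881, 1286 and 1653 CPM in 24 h GLT with compound D, and at 1689.6, 1573 and 1059.7 CPM in 24 h GLT. It was at 1464 CPM in the 3 h GLT with compound E library, at 2013, 1312 and 1574.5 CPM in 3 h GLT with compound D, and at 2151, 1441 and 1435 CPM in 3 h control. Condition 3 had 1830.4, 415 and 1594 CPM and condition 2 had 1759, 1605 and 1626 CPM. Both libraries of 24 h GLT with compound E lay below all libraries of condition 2 and of 3 h control, a separation whose share over all genes was not computed. The 949.7 CPM and the 415 CPM were those of the libraries that stood apart. The fitted log2 fold changes of Pcsk1 lay between -0.44 and 0.40 over the 13 comparisons of 2 groups, with an SE between 0.35 and 0.41.

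Pcsk2 was highest in condition 3. It was at 3039.8, 4098 and 2694 CPM there, against 2779, 2657 and 2131 CPM in condition 2. In the undisputed 24 h groups it was at 2653 and 2741.5 CPM with GLT and compound E, at 2827, 3284 and 2015 CPM with GLT and compound D, and at 2406, 2789 and 1589.8 CPM with GLT alone. At 3 h it was at 2807 CPM with GLT and compound E, at 2406, 2659.6 and 1922.5 CPM with GLT and compound D, and at 2529, 2211 and 2219 CPM in control. Within each preparation the condition 3 library was the highest of all conditions. Across preparations, condition 3 lay above all libraries of 3 h GLT with compound D and of 3 h control, and the share of all genes that did so was not computed. It overlapped condition 2 and the 3 undisputed 24 h groups.

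Against condition 3, the log2 fold change of Pcsk2 was -0.55 in 24 h GLT (SE 0.16, 95% interval -0.89 to -0.22, adjusted p = 0.0520, edgeR) and -0.49 in 3 h GLT with compound D (SE 0.16, adjusted p = 0.0769, edgeR). Neither passed, although the first did in 8 of its 31 other fits. In the first of these comparisons 0 of the 10 genes passed, against 5.97% of all genes; 5 of the 10 had an unadjusted p below 0.05, and DESeq2 called 4 (Pcsk2, Scg2, Scg3 and Pam). In the second 0 passed, against 6.93% of all genes, with 2 of 10 at an unadjusted p below 0.05 and 1 (Pcsk2) called by DESeq2. Condition 3 was also where the stellate markers (8 of 8 detected) summed highest, to 1104 to 1519 CPM, against 481 to 889 CPM in 24 h GLT and 346 to 479 CPM in 3 h GLT with compound D. Their part in the Pcsk2 difference was not tested.

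Scg5, the chaperone of PC2, was at 1547, 2257 and 1223 CPM in 24 h GLT with compound D, against 1128, 1239 and 776 CPM in 24 h GLT. Its means in the other groups were 1284 CPM in 24 h GLT with compound E, 1364 CPM in condition 3, 1205 CPM in condition 2, and between 1133.5 and 1253 CPM in the 3 h groups. The groups overlapped, although the value with compound D was the higher one in each preparation. At 24 h over 3 h with compound D, its log2 fold change was 0.53 (SE 0.20, adjusted p = 0.128, edgeR).

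Pcsk1n, the inhibitor of PC1/3, was the most variable of the 10, with a 42.4-fold span from 40.2 CPM in the condition 3 library of preparation 2 to 1706 CPM in the 24 h GLT with compound E library of preparation 1. Those are the 2 libraries that stood apart. Within preparation 2 alone the span was 34.2-fold, and in preparations 1 and 3 it was 7.59-fold and 2.69-fold. In 24 h GLT with compound D the gene was at 248, 1377 and 184 CPM, so libraries of 1 condition differed more than the condition means did. The SE of its log2 fold changes lay between 0.82 and 0.96 in the 13 comparisons of 2 groups, and it passed in none of them.

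Of the remaining genes, Cpe and Chgb varied least. Cpe spanned 1.90-fold over the 21 libraries (4398 to 8353 CPM) and Chgb 1.79-fold (1392 to 2491 CPM), the narrowest ranges of the 10. Their log2 fold changes lay between -0.29 and 0.26 for Cpe and between -0.26 and 0.24 for Chgb over the same 13 comparisons. Chga spanned 4.16-fold, from 674 CPM in a condition 3 library to 2805 CPM in 24 h GLT with compound E. In 24 h GLT against condition 3, Chga had a log2 fold change of 0.64 (SE 0.24, adjusted p = 0.127, edgeR).

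No difference of the 10 genes was detected between 3 h GLT with compound D and 3 h control, the 3 h comparison with undisputed labels. All 10 log2 fold changes lay between -0.23 and 0.09, the intervals of the 8 genes other than Pcsk1 and Pcsk1n stayed within -0.61 to 0.40, and 0 of 10 passed edgeR's test, against 0.103% of all genes; none had an unadjusted p below 0.05 and DESeq2 called 0. Condition 2 against 3 h control and condition 3 against 3 h control also gave 0 calls among the 10, against 2.31% and 0.692% of all genes. At an unadjusted p below 0.05 there were 1 (Scg3, log2 fold change 0.31) and 3 (Pcsk2 0.47, Pam 0.37 and Scg3 0.35), and DESeq2 called 0 in both. By the records the second of these is the 3 h GLT effect, and by the sheet the first is.

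Compound D at 24 h was compared with GLT alone, which asks what the compound changed under nutrient excess. None of the 10 genes passed, against 4.08% of all genes tested, but Pam, Scg5 and Scg3 had an unadjusted p below 0.05, and DESeq2 called all 3. Pam had a log2 fold change of -0.51 (SE 0.15, 95% interval -0.83 to -0.19, adjusted p = 0.0768, edgeR), with differences of -0.76, -0.72 and -0.03 in preparations 1, 2 and 3. Scg3 had -0.44 (SE 0.15, 95% interval -0.75 to -0.12, adjusted p = 0.122, edgeR). Both were lower with compound D in every preparation, by little in preparation 3, and the groups overlapped. Scg5 had 0.67 (SE 0.20, 95% interval 0.24 to 1.09, adjusted p = 0.0794, edgeR) and was higher with compound D in every preparation, with overlapping groups. In DESeq2 the adjusted p was 0.00459 for Pam, 0.0164 for Scg3 and 0.0244 for Scg5. Without both libraries that stood apart, neither of which belongs to these groups, edgeR called Pam and Scg5. Scg2 had 0.05 (95% interval -0.33 to 0.43).

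With compound E, 0 of the 10 genes passed against 24 h GLT, and 0% of all genes did. None of the 10 had an unadjusted p below 0.05 and DESeq2 called 0. Pam had a log2 fold change of -0.02 (95% interval -0.38 to 0.34), Scg3 0.09 (-0.26 to 0.45), Scg2 0.06 (-0.37 to 0.49) and Scg5 0.22 (-0.25 to 0.70), and the widest interval was that of Pcsk1n (-0.65 to 3.32). The group had 2 libraries, 1 of which stood apart.

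Set against each other at the same dose and time, 24 h GLT with compound E and 24 h GLT with compound D gave 0 calls among the 10 genes, against 3.01% of all genes. Scg3, Pam and Chga had an unadjusted p below 0.05, and DESeq2 called 2 (Scg3 and Pam). Scg3 had a log2 fold change of 0.53 (95% interval 0.18 to 0.88, adjusted p = 0.102, edgeR), Pam 0.49 (0.13 to 0.85, adjusted p = 0.134, edgeR) and Chga 0.75 (0.18 to 1.32, adjusted p = 0.145, edgeR). For these 3 genes both compound E libraries lay above all 3 compound D libraries. Such a separation occurred in 23.3% of all genes, in either direction. The log2 differences in preparations 1 and 2 were 1.269 and 0.025 for Chga, 0.627 and 0.562 for Pam, and 0.816 and 0.325 for Scg3. The compound E library of preparation 1 stood apart. Insulin made up 42.6% of its gene counts and Rn45s 2.38%, against 11.7% and 7.23% in the compound D library of preparation 1. In preparation 2 insulin made up 35.3% with compound E and 43.3% with compound D. The part of composition in these differences was not tested. The compound D libraries also enter the comparison of compound D with GLT. Scg2 had 0.01 (95% interval -0.42 to 0.44) and Chgb 0.00 (-0.33 to 0.34).

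**Figure D4:**
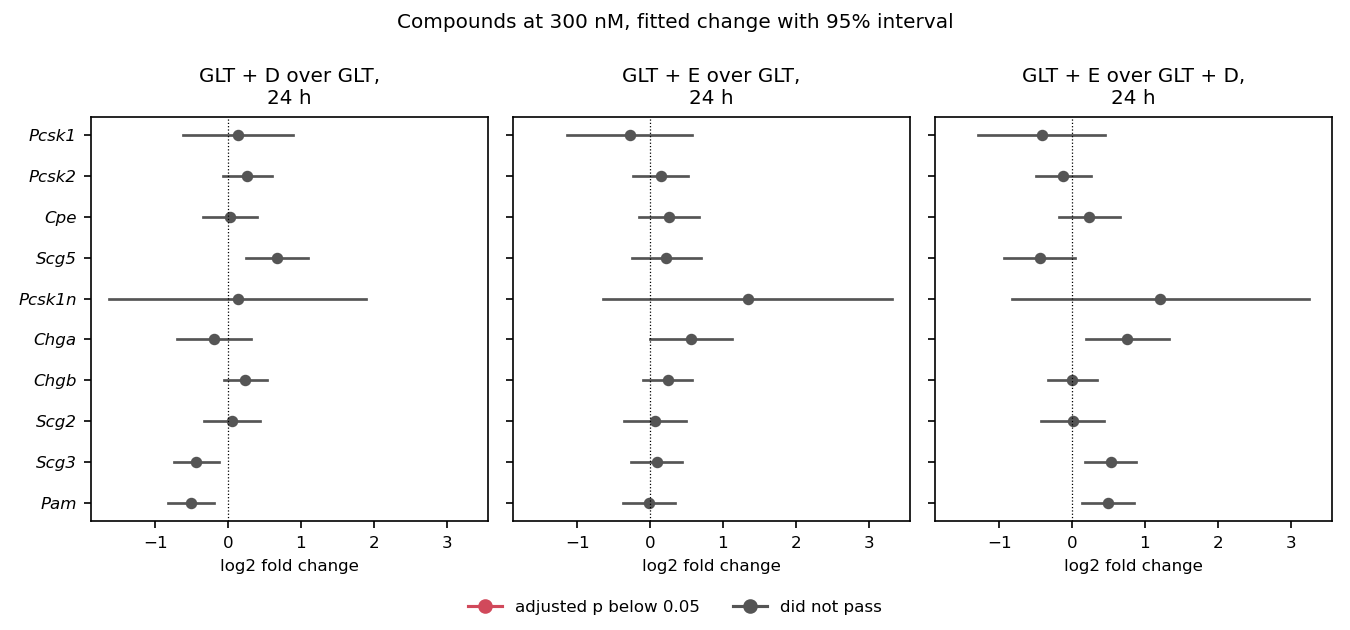
Fitted log2 fold change (horizontal axes) with its 95% interval for each of the 10 genes in the 3 comparisons of compounds at 24 h. No gene passed an adjusted p of 0.05, and Scg3 and Pam lie below 0 for compound D over GLT and above 0 for compound E over compound D. Both of these comparisons contain the compound D libraries, with opposite sign. For compound E over GLT, Scg3 is at 0.09 and Pam at -0.02.

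At 3 h, compound D is compared with GLT alone through condition 3 by the records and through condition 2 by the sheet. Against condition 2, 0 of the 10 genes passed, against 0.493% of all genes, with none at an unadjusted p below 0.05 and 0 called by DESeq2. The log2 fold changes lay between -0.92 (Pcsk1n) and -0.05 (Pcsk1) there, and library size scaling in place of TMM, which moved the median of all genes by 0.32, put 7 of the 10 above 0. In the single 3 h GLT with compound E library of preparation 2, Scg2 was at 7513 CPM, against 6334 CPM in 3 h GLT with compound D, 5092 CPM in condition 3, 7995 CPM in condition 2 and 6077 CPM in 3 h control of the same preparation. The 24 h GLT with compound D group set against the disputed libraries gave the call of Scg2 against condition 2 described above and 0 calls of 10 against condition 3. Against condition 3, 0.716% of all genes passed, 1 of the 10 (Scg2) had an unadjusted p below 0.05 and DESeq2 called 0.

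Across the 21 libraries the 10 genes did not vary as 1 block. With the mean of each preparation removed, 29 of the 45 pairs of genes had a positive Pearson r of log2 CPM, 9 were above 0.5, and the median was 0.17. Scg3 and Pam had the highest value, r = 0.96, and it was 0.971 without the libraries that stood apart. Chga followed Scg3 with 0.752. Scg2 ran against both, with r = -0.613 to Scg3 and -0.575 to Pam. Pcsk2 went with Scg5 (0.632) and Cpe (0.616). Pcsk1 and Pcsk2 had r = -0.407, which was 0.161 without the libraries that stood apart. Libraries share conditions, and all genes of a library share its depth and scaling, so these values describe the data and carry no test.

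**Figure D5:**
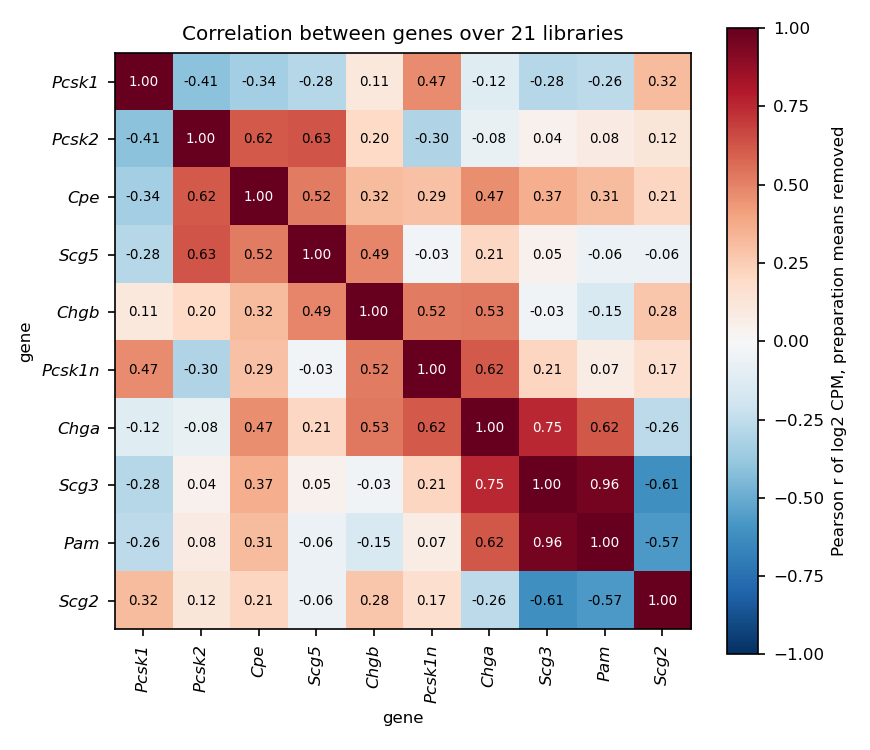
Pearson r between genes of log2 CPM with preparation means removed, over 21 libraries (rows and columns are the 10 genes; colour runs from -1 to 1). Scg3 and Pam stand out at 0.96, and Scg2 is negative to both.

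Among the other 12566 genes tested, the same measure over the 21 libraries named the genes whose pattern was most like each of the 10. Gla, which encodes alpha-galactosidase A, and Wdr1 were the closest to both Scg3 (r = 0.962 and 0.938) and Pam (0.934 and 0.903). Apob (0.946) and Olfml2b (0.94) were the closest to Scg2. For the convertases they were Vom2r52 (0.952) and Kbtbd6 (0.951) for Pcsk1, and Aoc3 (0.855) and Pc (0.839), the mitochondrial enzyme pyruvate carboxylase, for Pcsk2. For their partners they were Tspan6 (0.925) and RGD1310313 (0.918) for Scg5, and Tceb2 (0.969) and Rpl35a (0.967) for Pcsk1n. They were Igfbp7 (0.894) and Sst (0.881) for Cpe, Eif6 (0.957) and Hm13 (0.95) for Chga, and Ndufv1 (0.897) and Ppp1r12c (0.889) for Chgb. These r were picked as the highest among the 12566 genes, and none was recomputed without the libraries that stood apart. Those libraries held the lowest levels of Pcsk1 (415 and 949.7 CPM) and the lowest and highest of Pcsk1n (40.2 and 1706 CPM).

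The wider pathway, 44 tested genes of other proteases, granule membrane proteins, folding enzymes and granule-biogenesis factors, was counted by edgeR's test over all genes. Between 24 h GLT and condition 2, 4 rose and 3 fell in 24 h GLT, where 8.52% of all genes passed, with a median log2 fold change of 0.08 over the list, against -0.02 over all genes. Ica1, which takes part in granule formation, had -0.98, the carboxypeptidase Cpm -1.13, the vesicle tethering subunit Vps41 0.64 and Cyb561 0.57. Cyb561 is the granule membrane cytochrome that passes on the electrons Pam uses for amidation.

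Compound D at 24 h gave 1 of the 44 that rose and 3 that fell relative to 24 h GLT (median -0.06, against 0.01 over all genes), where 4.08% of all genes passed. The convertase Pcsk4 had 1.29, Cyb561 -0.54, Atp6ap2, an accessory protein of the proton pump, -0.70, and P4hb, a protein disulfide isomerase, -0.69. In 24 h GLT with compound E against 24 h GLT with compound D, 2 rose and 0 fell (median 0.09), where 3.01% of all genes passed, P4hb with 0.97 and Cyb561 with 0.68. These 2 comparisons share the compound D libraries. For compound E against 24 h GLT, 0 of the 44 passed in edgeR and 3 had an unadjusted p below 0.05.

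For 24 h against 3 h with compound D, 1 of the 44 rose (Pcsk4, 2.18) and 1 fell (Ica1, -0.57), with a list median of 0.03, against 0.02 over all genes, of which 6.11% passed. In 24 h GLT against condition 3, 2 rose and 2 fell, where 5.97% of all genes passed: P4hb had 0.64, the vesicular monoamine transporter Slc18a2 0.92, the granule membrane protein Ptprn2 -0.92 and the granule zinc transporter Slc30a8 -0.89. Relative to condition 2, 24 h GLT with compound D had 2 that rose (Pcsk4 1.94, Vps41 0.48) and 2 that fell (Cpm -1.21, Ica1 -0.74), where 12.5% of all genes passed. In 3 h GLT with compound D against condition 3, 3 rose and 2 fell, where 6.93% of all genes passed, among them Ica1 (0.60), Cyb561 (-0.51) and Pcsk4 (-1.23). The other comparisons had 0 of the 44 past the threshold in edgeR, with between 1 and 6 at an unadjusted p below 0.05.

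Of 14 tested transcription factors and RNA-binding proteins that act on endocrine or granule genes, Crem, the cAMP response element modulator, passed in 7 of the 14 comparisons. It fell at 24 h over 3 h with compound D (-1.33), in 24 h GLT with compound D against 24 h GLT (-1.05), and in 24 h GLT and 24 h GLT with compound D against condition 2 (-1.06 and -2.11). It rose in 24 h GLT against condition 3 (1.46), in condition 2 against 3 h control (1.76) and in 3 h GLT with compound D against condition 3 (1.74). Rfx6, an islet transcription factor, rose with compound D over 24 h GLT (0.67) and fell with compound E over compound D (-0.80), in 24 h GLT against condition 3 (-0.59) and in condition 2 against 3 h control (-0.79). Ptbp1, which is known in beta cells for stabilising granule protein mRNAs, fell in 24 h GLT and in 24 h GLT with compound D against condition 2 (-0.44 in both) and rose in 3 h GLT with compound D against condition 3 (0.48). Atf4, a stress-responsive factor, rose in 24 h GLT (0.53) and in 3 h GLT with compound D (0.73) against condition 3, and Foxa2 fell in 24 h GLT with compound D against condition 2 (-0.50). In the comparisons named here 2.31% to 12.5% of all genes passed. These comparisons share libraries, so the calls of 1 gene are not independent. Condition 2 against 3 h control is 24 h against 3 h control by the records, and 3 h GLT against 3 h control by the sheet.

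Of 6 hormone genes whose products this pathway processes or accompanies, Iapp, which encodes amylin, was the 1 that passed in any comparison. It fell at 24 h over 3 h with compound D (-1.59), in 24 h GLT against condition 2 (-1.51) and condition 3 (-0.78), and in 24 h GLT with compound D against condition 2 (-1.96) and condition 3 (-1.23). It rose with compound E over compound D at 24 h (0.85), where Scg2 had 0.01. In these comparisons, which share libraries, 0.716% to 12.5% of all genes passed. The beta cell markers (8 of 10 tested, both insulin genes included) summed from 424088 to 633092 CPM in 24 h GLT with compound E, against 86303 to 583067 CPM in 24 h GLT with compound D.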

How the data were processed

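RNA of 21 islet libraries from 3 preparations was sequenced as paired 100 bp reads. Per the labels' protocols, the authors aligned the reads with TopHat2 2.0.3, running on Bowtie2 2.0.0, to the rat build rn5 and obtained a count per gene with HTSeq. The deposited values are raw counts per gene, not normalized. The strand setting and the annotation are not given in the sources used here, so reads of a gene and of an antisense partner cannot be told apart. The 5 entries naming no gene entered neither the library sizes nor the tests. Among them, reads in no feature made up 10.3% to 18.7% of a column, multiply aligned reads 4.92% to 23.4%, and reads of ambiguous origin 0.161% to 2.32%.

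Counts were fitted with edgeR 4.0.16 in R 4.3.3 over all 21 libraries, with condition and preparation as terms, factors from TMM, and low genes removed by filterByExpr at its defaults. The quasi-likelihood test was 2-sided, p-values were adjusted by Benjamini-Hochberg over all 12576 genes tested, and the threshold was 0.05. DESeq2 1.42.0 was an alternative. The script was tested on simulated counts. CPM values are TMM-scaled.

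The preparation was kept as a block because each pool of islets was divided over the conditions. Residuals of same-numbered libraries, from a fit of conditions alone, correlated with a mean of 0.07, 0.183 and 0.425 in preparations 1, 2 and 3. The block takes out differences in level between these 3 pools of rats. The p-values therefore measure the spread left between libraries after the condition and preparation terms, estimated over all 21 libraries.

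Groups follow the sample records. All 10 genes are described, with values per library for those that passed in a comparison and for Pcsk1 and Pcsk2 in any case. Such values for Pam, and for Scg5 in 24 h GLT with and without compound D, were added after they were seen. From the other lists up to 4 genes that passed are named per comparison, by smallest adjusted p, except 1 that is not reported here. The genes and lists were chosen with earlier results of these data known. Alternatives were the normalization, the filter, the tool, the block, the libraries in the fit, the most abundant genes and each library or preparation left out.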

Additional observations from a re-analysis of the deposited data

How the results depend on the processing

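Over 140 gene results (10 genes in 14 comparisons), 4390 values from other settings were computed: 4317 kept their side of the threshold, 27 lost a call, 46 gained one and 0 called values changed sign, while 224 values without a call did. The counts below are of the 10 genes past an adjusted p of 0.05. For 24 h GLT with compound D against 24 h GLT the count was 0, and it was 3 in DESeq2 and 2 without both libraries that stand apart, an alternative chosen after seeing the data. For compound E against compound D at 24 h it was 0, with 2 in DESeq2 and 1 with library size scaling. For 24 h over 3 h with compound D it was 1 and became 0 with library size scaling, without the replicate block and with the 15 undisputed libraries alone. For condition 4 (24 h GLT) against condition 2 it was 2, with 1 without the filter, 1 without the replicate block and 4 with the compared conditions alone. Against condition 3 it was 0, with 4 in DESeq2 and 1 without Ins1, Ins2 and Rn45s. For condition 5 (3 h GLT with compound D) against condition 3 it was 0, with 1 in DESeq2, and for condition 6 (24 h GLT with compound D) against condition 2 it was 1, with 2 under library size scaling. The replicate block changed no other count. The cause of these moves was not tested.

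With 1 library or 1 preparation left out, the count ranged from 0 to 1 for compound D against GLT at 24 h, 0 to 3 for compound E against GLT, 0 to 4 for compound E against compound D, 0 to 1 for 24 h over 3 h with compound D, 0 to 3 for condition 4 against condition 2, 0 to 1 for condition 4 against condition 3 and 0 to 2 for condition 6 against condition 2. In the other 7 comparisons it stayed at 0 under all settings run but the DESeq2 value above. The high values with compound E came without preparation 2, which leaves 1 compound E library: Pcsk1, Pcsk1n and Chga against GLT, and these with Scg3 against compound D. There the lone library is assumed to vary like the other groups.

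Library size scaling in place of TMM moved the median log2 fold change of all genes by -0.398 in compound E against 24 h GLT, by -0.391 in compound E against compound D, by 0.361 in the change of the GLT effect, and by 0.32, -0.273, 0.256, 0.249, 0.152 and -0.108 in conditions 5 against 2, 2 against 1, 4 against 2, 6 against 2, 5 against 3 and 3 against 1. Scg2 ranged from -0.85 to -0.65 in 24 h over 3 h with compound D (past the threshold in 23 of 32 settings), from -1.33 to -0.92 in condition 4 against condition 2 (29 of 31) and from -1.15 to -0.87 in condition 6 against condition 2 (30 of 31). Scg3 ranged from 0.42 to 0.76 in condition 4 against condition 2 (16 of 31). The disputed labels of conditions 2 and 3, 3 pools of rats and the 2 libraries of compound E at 24 h limit what these comparisons can show.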
